A study of Mus musculus with 48 samples.

Results

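The lysosomal genes described here are the 104 genes, of 24973 in the deposited table, that the table assigns to the KEGG pathway Lysosome, leaving out the 8 subunits of the vacuolar proton pump (*Atp6* genes) and genes with a mean under 10 normalized counts over all libraries. Of the 114 genes with the term, 106 were left without the proton pump, and 2 of these, *Ap1m2* and *Psapl1*, had means of 0.5 and 0.604 and were dropped. The members with the lowest means above that limit were *Ctse* at 17.0, *Ap4b1* at 36.3, *Acp5* at 37.6 and *Ctsw* at 40.6. All 104 members were sorted by role into 16 proteases, 17 glycosidases, 8 sulfatases and their activator, 9 lipid-handling enzymes and activators, 2 phosphatases, 24 membrane proteins, and 28 genes of mannose 6-phosphate tagging, sorting receptors and vesicle coats.

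Lysosomes are acidic organelles in which hydrolases break down proteins, sugar chains and lipids delivered by endocytosis, phagocytosis and autophagy. Most soluble hydrolases are made in the endoplasmic reticulum, tagged with mannose 6-phosphate in the Golgi apparatus, and carried to the lysosome by mannose 6-phosphate receptors in coated vesicles, while heavily glycosylated membrane proteins such as Lamp1 and Lamp2 line the organelle. Microglia, the resident phagocytes of the brain, are known for a large lysosomal compartment, and inherited loss of single members of the pathway causes lysosomal storage diseases that often affect the brain.

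The data were 48 RNA-sequencing libraries of endothelial cells, pericytes, astrocytes and microglia of the neurovascular unit, sorted by flow cytometry from adult male wild-type C57BL/6 mice aged 12 to 15 weeks. All mice had a transient occlusion of the middle cerebral artery (tMCAO) of 1 h followed by 23 h of reperfusion. Each cell type had 6 libraries from the ipsilateral, ischemic hemisphere and 6 from the contralateral hemisphere, which served as the control, and each library came from a pool of 3 to 4 mice, with both hemispheres and all cell types of a replicate taken from the same pool. No sham-operated mice entered these comparisons, so the contralateral hemisphere had also been through the operation. The microglial gate was CD11b-positive and CD45-low, astrocytes were sorted by ACSA2, endothelial cells by VE-cadherin and pericytes by NG2 and PDGFRβ together, and the gates other than the microglial one were CD45-negative.

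Normalized counts summed to 10549900 to 16942165 per library. Sample titles and table columns disagree on which 12 ipsilateral libraries are microglia and which are pericytes, each naming the other cell type, and the columns were followed. By these names, the summed normalized count of 12 microglial markers was 264448 to 434792 in the ipsilateral microglia and 278 to 67556 in the ipsilateral pericytes, while 4 pericyte markers summed to 102 to 1865 in these microglia and to 34058 to 90625 in these pericytes. Each of these marker lists was highest in its own cell type, but microglial marker RNA was also present in the other sorts, at sums of 907 to 67556 in replicates 1 to 4 of the endothelial cells and pericytes of both hemispheres and of 244 to 711 in replicates 5 and 6. RNA of oligodendrocyte markers was abundant in astrocyte libraries, with a sum of 31766 to 359179 over 5 genes. In bulk libraries such as these, fewer cells of a type and less RNA per cell cannot be told apart.

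Promoter sequences come first, because many lysosomal genes are known to carry the palindrome CACGTG, an E-box, near the transcription start, and factors of the Tfeb family are known to bind its extended form TCACGTGA. In the RefSeq promoter table of build GRCm38.p6, which covers 250 bases before to 50 bases after each start, 82 of 104 members (78.8%) had an entry, too few for a comparison of the members as a set, which is therefore void. The counts are given as a description. CACGTG, read on both strands, was present in 22 of 98 promoters of members and in 7.15% of all 32851 promoters, and TCACGTGA, whose matches are also matches of CACGTG, in 10 of 98 and in 0.974%.

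Windows around the motif are shown for genes that changed in microglia after stroke and for *Ctsd* and *Gaa*, well-known members, in lower case with the matched letters in capitals, each 5′ to 3′ along the strand named.
Igf2r, chr17:12769729-12769774, minus strand, upregulated in ipsilateral microglia: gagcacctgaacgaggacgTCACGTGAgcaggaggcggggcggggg
Gla, chrX:134601174-134601219, minus strand, upregulated in ipsilateral microglia: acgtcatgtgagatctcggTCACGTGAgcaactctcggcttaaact
Gla, chrX:134601207-134601252, minus strand, a further match: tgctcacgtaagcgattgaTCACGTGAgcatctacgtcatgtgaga
Ctsl, chr13:64370731-64370770, minus strand, upregulated in ipsilateral microglia: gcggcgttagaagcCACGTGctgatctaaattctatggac
Cd164, chr10:41519393-41519438, plus strand, downregulated in ipsilateral microglia: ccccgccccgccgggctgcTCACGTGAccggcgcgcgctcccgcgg
Ctsf, chr19:4855066-4855111, plus strand, downregulated in ipsilateral microglia: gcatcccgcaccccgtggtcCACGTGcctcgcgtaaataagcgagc
Sgsh, chr11:119355514-119355559, minus strand, downregulated in ipsilateral microglia: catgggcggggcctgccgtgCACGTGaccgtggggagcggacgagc
Ctsd, chr7:142387900-142387945, minus strand, not called in the fit of any cell type: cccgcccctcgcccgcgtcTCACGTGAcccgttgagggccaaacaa
Gaa, chr11:119267803-119267848, plus strand, not called in the fit of any cell type: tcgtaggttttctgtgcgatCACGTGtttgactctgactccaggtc

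The matches shown start between positions -236 (*Ctsl*) and -29 (*Sgsh*) from the annotated start. Letters of the motif were found before genes that were higher and before genes that were lower in ipsilateral microglia. Of the 10 members that were upregulated in microglia, 5 had a promoter in the table and 3 of these (*Ctsl*, *Gla* and *Igf2r*) held CACGTG. Of the 13 that were downregulated, 9 had one and 3 (*Cd164*, *Ctsf* and *Sgsh*) held it. *Ap3s1*, *Ctsb*, *Galns*, *M6pr* and *Napsa* had no entry.

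In the contralateral hemisphere the lysosomal genes took a far larger share of the normalized counts in microglia than in the other cell types. The 104 members together made up 8.68% ± 0.40 of the normalized counts in microglia (SD, n = 6, range 8.14% to 9.20%), 2.04% ± 0.19 in astrocytes, 1.28% ± 0.18 in endothelial cells and 1.18% ± 0.31 in pericytes (0.94% to 1.75%). The microglial libraries lay apart from all others, whereas the ranges of endothelial cells (1.11% to 1.55%) and pericytes overlapped. Proteases alone made up 4.62% ± 0.17 in microglia and glycosidases 1.59% ± 0.09, against at most 0.58% and 0.22% on average elsewhere.

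Per kilobase of exon, the level scale on which genes can be compared with each other, the order of members also differed between cell types. In contralateral microglia the highest member was *Ctss*, a cysteine protease of antigen-processing cells, at 107444 normalized counts per kilobase, and *Ctsd*, an aspartic protease, was at 69315. In astrocytes *Psap*, the precursor of the saposins that help sphingolipid breakdown, led with 9822, before *Ctsd* with 6041 and *Lamp1* with 5926. In endothelial cells and pericytes *Laptm4a*, a small membrane protein of endosomes and lysosomes, led with 5627 and 3869. The tagging, receptor and coat genes together took 0.17% to 0.26% of the normalized counts in all 4 cell types.

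**Figure D1:**
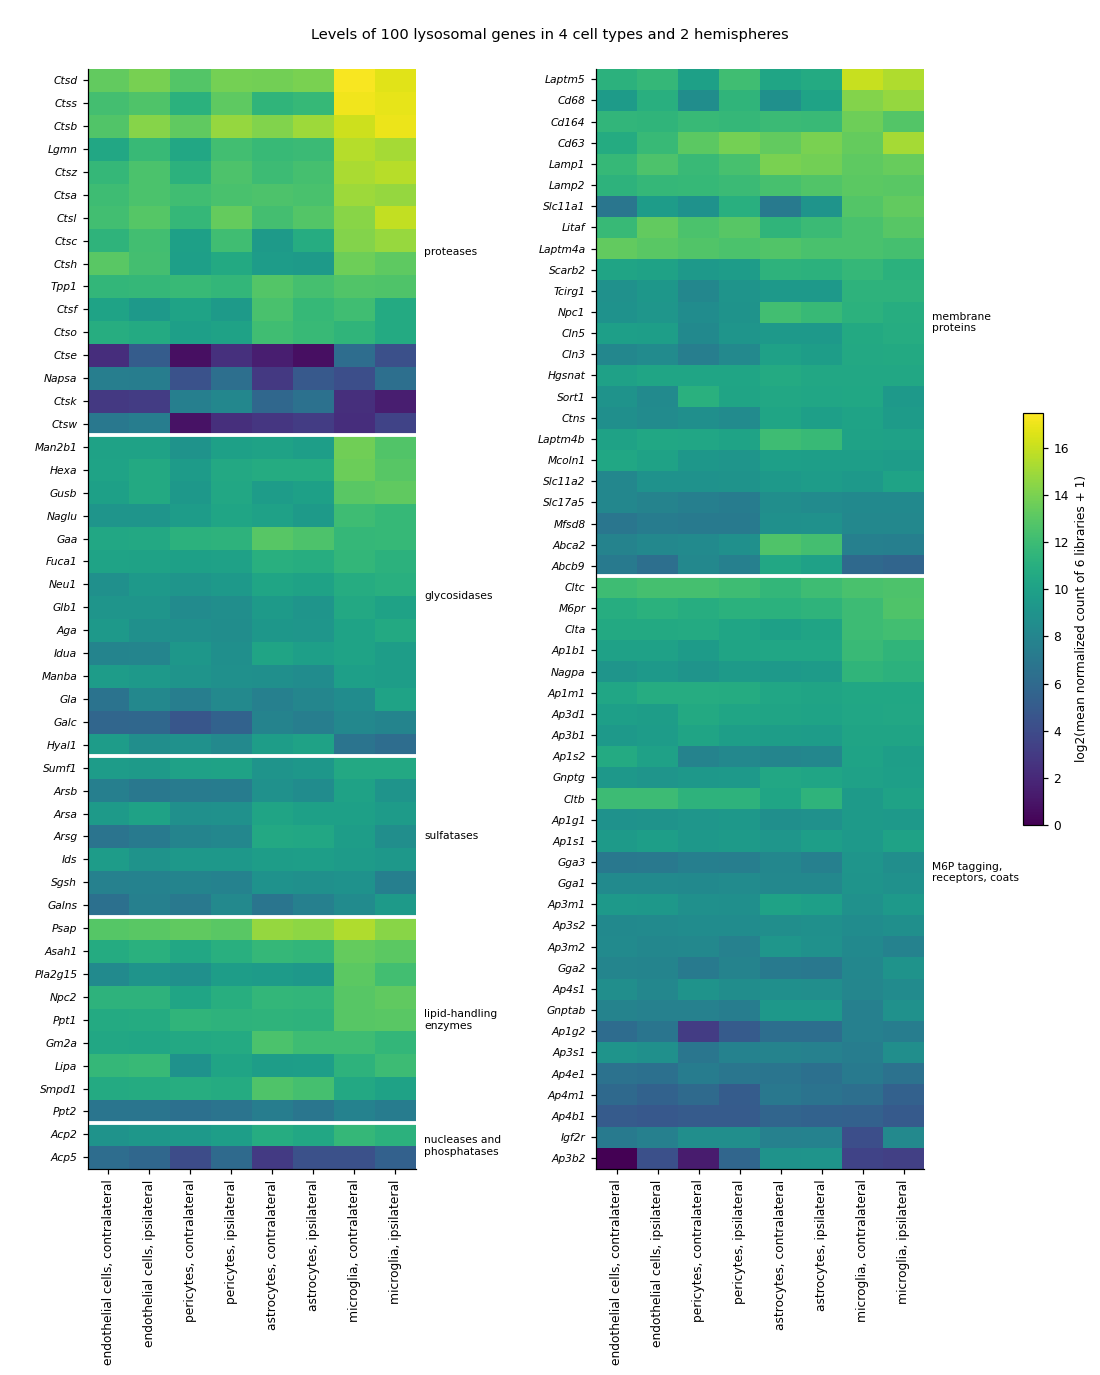
Mean level of the members whose values are reported here in the 8 groups, as log2(mean normalized count of 6 libraries + 1), by role and, within a role, ordered by contralateral microglia. The 2 microglial columns hold the brightest cells among proteases and glycosidases, while *Abca2*, *Smpd1*, *Npc1* and *Gaa* are brightest in astrocytes.

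A member was called highest in a cell type when its contralateral level exceeded that of each of the other 3 by at least 1 on the log2 scale, with an adjusted p of at most 0.05 in each contrast (limma fit of all 48 libraries on log2(normalized count + 1), two-sided, Benjamini-Hochberg adjustment over 15003 genes). By this rule 31 of 104 members were highest in microglia, where 8.26% of all genes were, 7 in astrocytes (13.3% of all genes), 3 in endothelial cells (4.71%) and 1 in pericytes (5.29%), and 62 were highest in no cell type. The 31 microglial members comprised 9 of 16 proteases, 7 of 17 glycosidases, 4 of 9 lipid-handling enzymes, 2 of 8 sulfatases, 5 of 24 membrane proteins and 4 of 28 tagging, receptor and coat genes. In all 31 the lowest microglial library lay above the highest contralateral library of any other cell type. The rule itself selects genes that differ from each other cell type. The share without overlap among all genes called highest in microglia is not given.

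*Ctss* held 120220 to 171339 normalized counts in contralateral microglia (median 145104) and at most 17633 in any contralateral library of the other types. *Cd68*, a glycoprotein of macrophage endosomes and lysosomes, held 17491 to 21837 (median 18898) against at most 2637. The smallest differences from another cell type were 6.46 and 5.93 on the log2 scale for these genes, and for *Ctsd* the microglial mean of 162959 ± 9588 stood against 14202 ± 4915 in astrocytes, a smallest difference of 3.59.

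Levels of these microglial members in endothelial cells and pericytes moved with microglial marker RNA. In contralateral endothelial cells *Ctss* was at 4599, 17633, 4326 and 2418 normalized counts in replicates 1 to 4 and at 116 and 196 in replicates 5 and 6, and in contralateral pericytes it was at 1490, 9790, 2160 and 187, then at 0 and 37. The 12 microglial markers, none of them a member, summed to 7871 to 31183 in the first 4 and to 469 and 711 in the last 2 of these endothelial libraries. Over the 31 members highest in microglia, 24 were higher in replicates 1 to 4 than in replicates 5 and 6 of contralateral endothelial cells, with a median ratio of 1.45, and 28 in pericytes, with a median ratio of 1.31. Among the other 73 members the median ratios were 0.989 and 1.04. In contralateral astrocytes 22 of the 31 were higher in replicates 1 to 4, with a median ratio of 1.26, against 0.962 among the other 73. The microglial markers there summed to 3486 to 33424 in replicates 1 to 4 and to 1370 and 1886 in replicates 5 and 6. The part of microglial RNA in these levels was not tested.

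Astrocytes were highest for *Ap3b2*, the neuronal-type beta subunit of the AP-3 coat, with 305 to 732 normalized counts (median 464) against at most 27 in contralateral libraries of the other types, and for the transporters *Abca2* (2683 to 10763, median 6484, against at most 470) and *Abcb9* (990 to 2136, median 1424, against at most 359). These ranges did not overlap. *Smpd1*, the acid sphingomyelinase, *Laptm4b*, *Gnptab* and *Gaa*, the acid alpha-glucosidase, completed the list, with *Gaa* at 7997 ± 2757 in astrocytes and 3252 ± 266 in microglia. *Abca2* is also known from oligodendrocytes, whose markers were abundant in the astrocyte libraries, and the part of that RNA was not tested. Neuronal markers (6 genes) summed to 638 to 4798 in contralateral astrocytes and to 0 to 1501 in the other contralateral groups.

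Endothelial cells were highest for *Ap3s1*, the sigma subunit of AP-3, with 434 to 641 normalized counts (median 516) against at most 347 elsewhere. The proteases *Ctsw* (11 to 533, median 50) and *Napsa* (27 to 376, median 167) were also called, with ranges that overlapped those of other cell types. *Napsa* was at 245, 264, 89 and 376 normalized counts in replicates 1 to 4 and at 27 and 53 in replicates 5 and 6. The part of RNA from other cells in this level was not tested. In pericytes only *Ctsk*, the cysteine protease known from osteoclasts, was called, with 68 to 303 normalized counts (median 162) against at most 115. That call was lost with a pseudocount of 0.1, with only replicates 1 to 4 and without replicate 3, 5 or 6. All other members had no single highest cell type by this rule, among them *Lamp2*, with means of 8565 ± 1382 in microglia, 5536 ± 1367 in astrocytes, 3304 ± 838 in pericytes and 2541 ± 365 in endothelial cells, where the pericyte range reached into those of its neighbours.

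Nearly all lysosomal genes called as changed after stroke were called in microglia, and there in both directions. A gene was called regulated with a limma adjusted p of at most 0.05 (fit of the 12 libraries of the cell type, two-sided, Benjamini-Hochberg adjustment over all genes tested), at least a 1.5-fold change in either direction, and over 10 normalized counts in each of the 6 libraries of 1 hemisphere or both. A log2 fold change (log2FC) is ipsilateral minus contralateral throughout, with its standard error (SE). *Ctsw*, *Ctsk* and *Ap3b2* in microglia, *Ctsk* and *Ap3b2* in endothelial cells, and *Ctse* and *Ctsw* in pericytes and astrocytes had a mean under 10 normalized counts in the cell type and were not tested. In microglia 10 of 101 members tested (9.90%) were upregulated, where 4.29% of all genes were, and 13 (12.9%) were downregulated, where 6.27% of all genes were. The median log2FC was -0.19 over the members and -0.18 over all genes tested, so members as a whole lay at the general shift of this cell type. In endothelial cells 1 of 102 members was upregulated (0.362% of all genes) and 0 downregulated (0.128%). In pericytes 0 of 102 were upregulated (0.441%) and 0 downregulated (0.581%), and in astrocytes 0 of 102 were upregulated (0.334%) and 0 downregulated (0.00655%). An unadjusted p under 0.05 was reached by 45 microglial members (44.6%, and 28.0% of all genes tested), 12 endothelial (11.8% and 11.9%), 14 pericyte (13.7% and 15.4%) and 11 astrocyte members (10.8% and 9.28%).

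With the replicate number as a block, which pairs the hemispheres of the same mice, 13 members were upregulated (4.54% of all genes) and 14 downregulated (6.50%) in microglia. The block gave 1 upregulated (0.378% of all genes) and 0 downregulated (0.174%) members in endothelial cells, 2 (0.684%) and 0 (0.978%) in pericytes, and 1 (1.25%) and 1 (0.334%) in astrocytes. An unadjusted p under 0.05 (limma with the block) was reached by 44 microglial members (43.6%, and 30.0% of all genes tested). It was also reached by 22 endothelial (21.6% and 13.6%), 25 pericyte (24.5% and 18.5%) and 21 astrocyte members (20.6% and 17.6%). Taking the cell type from the sample titles in place of the column names would give 6 upregulated members (20.5% of all genes) and 63 downregulated ones (23.2%) in microglia, and 65 (21.3%) and 6 (23.6%) in pericytes. By the marker sums above, the titles' fits set libraries rich in pericyte markers against contralateral microglia, and the reverse.

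**Figure D2:**
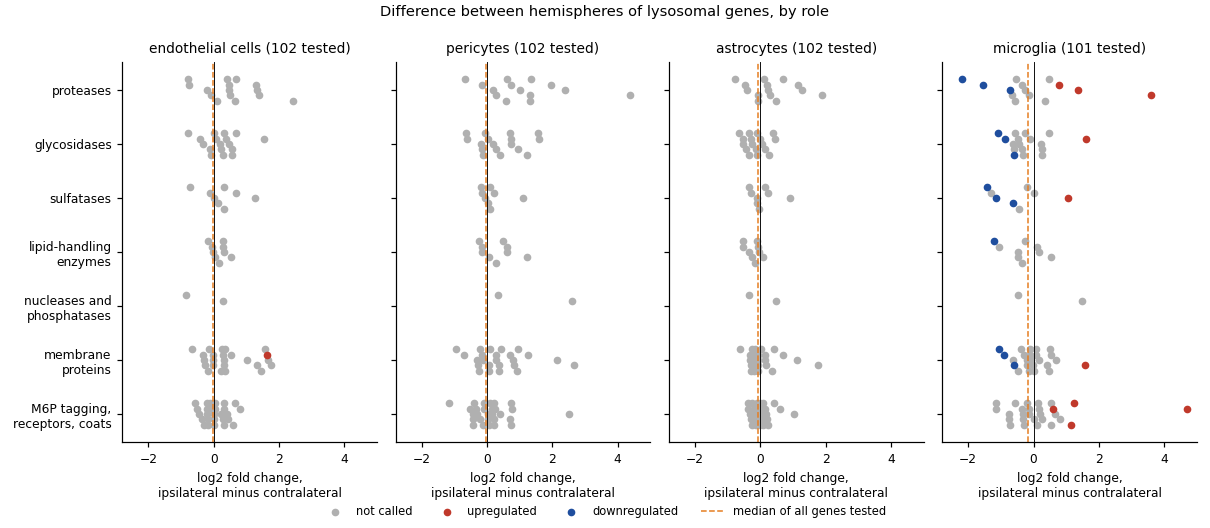
Log2FC of each member tested, ipsilateral minus contralateral, by role and cell type; red and blue points are upregulated and downregulated, grey points were not called, and the dashed line is the median of all genes tested. Called members sit almost entirely in the microglial panel, with 13 blue points spread over proteases, glycosidases, sulfatases, lipid-handling enzymes and membrane proteins and 4 of the 10 red points in the tagging, receptor and coat genes.

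Among the proteases, *Ctsl* and *Ctsb*, both cysteine endopeptidases, rose in ipsilateral microglia. *Ctsl* (ENSMUSG00000021477, chromosome 13 of GRCm38 from 64359337 to 64370890) went from 19515 to 23617 normalized counts (median 22504) to 37757 to 105123 (median 56632), a log2FC of 1.36 (SE 0.23, limma adjusted p = 0.00229). All ipsilateral libraries lay above all contralateral ones. *Ctsb* (ENSMUSG00000021939, chromosome 14 from 63122462 to 63145923) was within 69765 to 74200 in the contralateral libraries and at 81630 to 189164 (median 119826) in the ipsilateral ones, without overlap, a log2FC of 0.79 (SE 0.23, limma adjusted p = 0.0383). *Napsa*, an aspartic protease, was at 0 to 11 in 5 contralateral libraries and at 80 in replicate 1, against 37 to 142 in the ipsilateral libraries, so the groups overlapped. It was higher in 5 of 6 pairs (log2FC 3.59, SE 0.94, limma adjusted p = 0.0236). Most contralateral values were near 0, with 1 read worth at most 1.18 normalized counts in the contralateral microglia where its worth is known. The size of this *Napsa* change therefore depends on the pseudocount.

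*Ctsf*, *Ctso* and *Ctse* fell. *Ctsf*, a cysteine protease, went from 3760 to 5476 (median 4407) to 746 to 2900 (median 1653), a log2FC of -1.56 (SE 0.28, limma adjusted p = 0.00346), and *Ctso*, another papain-like protease, from 2347 to 3255 (median 2760) to 1429 to 2001 (median 1643), a log2FC of -0.72 (SE 0.14, limma adjusted p = 0.00497). In neither gene did the hemispheres overlap. *Ctse*, an aspartic protease of endosomes, held 40 to 134 and 5 to 40 normalized counts, so its groups touched (log2FC -2.19, SE 0.57, limma adjusted p = 0.0231). *Ctsd*, *Ctss* and *Ctsz* were not called. *Ctsd* had a log2FC of -0.66 (adjusted p = 0.0730, limma) with non-overlapping ranges of 152237 to 174439 and 65332 to 124307, *Ctss* one of -0.36 (adjusted p = 0.381, limma) and *Ctsz*, a carboxypeptidase, one of 0.34 (adjusted p = 0.250, limma). Proteases as a group thus had 3 upregulated, 3 downregulated and 8 uncalled members of 14 tested, with a median of -0.31.

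Glycosidases and sulfatases mostly had negative fold changes. Of 17 glycosidases 1 was upregulated and 3 were downregulated, with a median of -0.36, and of 8 sulfatases 1 was upregulated and 3 were downregulated, with a median of -0.54. The upregulated members were *Gla*, the alpha-galactosidase A that is deficient in Fabry disease, and *Galns*, the galactosamine-6-sulfatase of keratan sulfate breakdown. *Gla* rose from 221 to 560 normalized counts (median 311) to 609 to 1837 (median 1001), a log2FC of 1.60 (SE 0.29, limma adjusted p = 0.00337), and *Galns* from 239 to 462 (median 369) to 543 to 858 (median 734), a log2FC of 1.06 (SE 0.20, limma adjusted p = 0.00493). Both were separated between hemispheres in all 12 libraries.

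*Sgsh*, the sulfamidase of heparan sulfate breakdown, had the smallest p among the members that fell, from 403 to 652 normalized counts (median 489) to 92 to 245 (median 208), a log2FC of -1.42 (SE 0.25, limma adjusted p = 0.00298). *Arsg*, an arylsulfatase, fell from 605 to 1155 to 185 to 522 (log2FC -1.14, limma adjusted p = 0.0159). *Man2b1*, the lysosomal alpha-mannosidase, fell from 11953 to 15395 (median 12959) to 2914 to 10788 (median 6964), a log2FC of -1.10 (SE 0.27, limma adjusted p = 0.0172). These ranges did not overlap. *Hexa*, the alpha subunit of hexosaminidase, fell by 0.59 on the log2 scale (SE 0.15, limma adjusted p = 0.0223), just past the fold limit.

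Of the 9 lipid-handling members *Psap* alone was called. It fell from 30442 to 53877 normalized counts (median 43936) to 7243 to 35879 (median 21366), a log2FC of -1.22 (SE 0.35, limma adjusted p = 0.0377), and was lower in all 6 pairs although the groups overlapped. *Npc2*, a cholesterol-binding protein, had a log2FC of 0.18 (adjusted p = 0.635, limma). Neither of the phosphatases *Acp2* and *Acp5* was called, with -0.48 and 1.47.

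Among 24 membrane proteins 1 was upregulated and 3 were downregulated. *Cd63*, a tetraspanin of late endosomes and lysosomes, rose from 8560 to 12041 normalized counts (median 10522) to 16137 to 93543 (median 30351), a log2FC of 1.56 (SE 0.34, limma adjusted p = 0.00954), with no overlap. *Sort1*, the sorting receptor sortilin, fell by 1.04 on the log2 scale (SE 0.24, limma adjusted p = 0.0140), *Cd164*, a sialomucin, by 0.90 (SE 0.22, limma adjusted p = 0.0179) and *Ctns*, the cystine transporter, by 0.59 (SE 0.17, limma adjusted p = 0.0346), each lower in all 6 pairs. The 2 main membrane proteins of the organelle were not called. *Lamp2* had a log2FC of -0.01 (adjusted p = 0.958, limma), with 6543 to 10228 and 7717 to 8889 normalized counts. *Lamp1* ranged from 2391 to 21267 normalized counts within the contralateral group and from 4841 to 17309 within the ipsilateral one, and had a log2FC of 0.53 (SE 0.48, adjusted p = 0.488, limma). *Cd68* (0.41, adjusted p = 0.297, limma) and *Npc1*, the cholesterol transporter (-0.29, adjusted p = 0.292, limma), were not called either.

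The genes of tagging, receptors and coats included 4 upregulated and 0 downregulated members of 27 tested, with a median of 0.01. Both mannose 6-phosphate receptors were among them. *Igf2r*, the cation-independent receptor (ENSMUSG00000023830, chromosome 17 from 12682406 to 12769664), was at 0, 3, 12, 25, 27 and 35 normalized counts in the contralateral microglia and at 145 to 618 (median 271) in the ipsilateral ones, means of 17.0 ± 14.1 and 307 ± 177 (SD, n = 6). The groups did not overlap, and the log2FC of 4.69 (SE 0.79, limma adjusted p = 0.00229) was 5.34 with a pseudocount of 0.1 and 3.58 with 10. *M6pr*, the cation-dependent receptor, rose from a median of 3918 (3848 to 5165) to 6722 (4198 to 7868), a log2FC of 0.61 (SE 0.17, limma adjusted p = 0.0323). Its groups overlapped, through contralateral replicates 1 and 2 and ipsilateral replicate 5. *Gnptab*, the phosphotransferase subunit that adds the tag, rose from a median of 183 (103 to 343) to 403 (226 to 719), a log2FC of 1.24 (SE 0.36, limma adjusted p = 0.0374), and *Ap3s1* from 172 (136 to 201) to 346 (270 to 653), a log2FC of 1.15 (SE 0.24, limma adjusted p = 0.00786). The block also called *Ap1s1* (0.64), *Gga2* (0.80), both of vesicle coats, and *Slc11a2* (0.69) as upregulated, and *Arsb* (-1.29) and *Pla2g15* (-1.07) as downregulated.

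**Figure D3:**
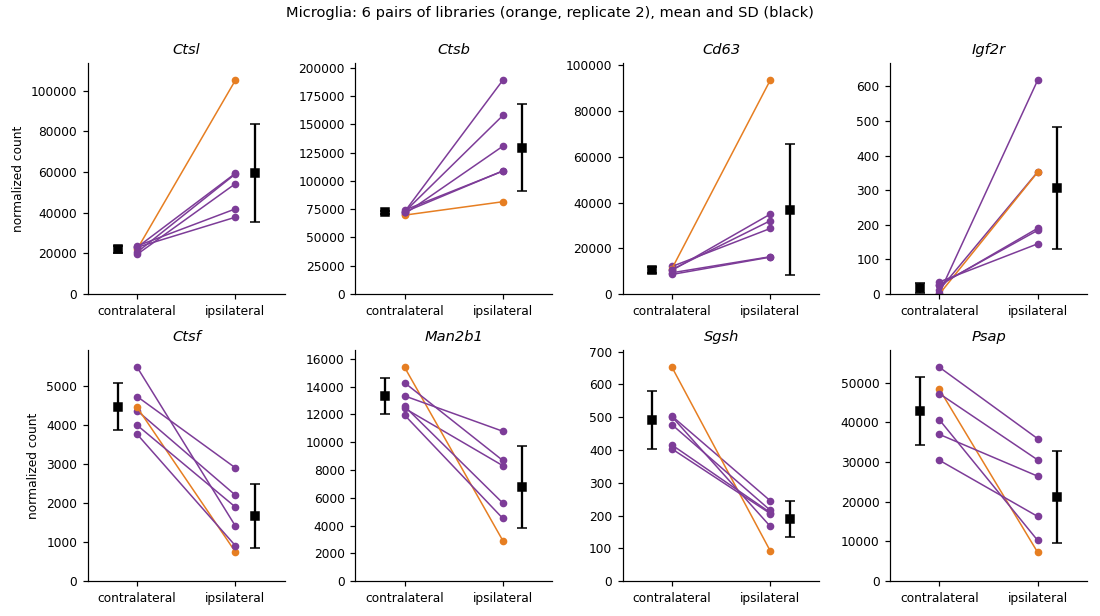
Normalized counts of 8 members in the 6 pairs of microglial libraries, with lines joining hemispheres of the same mice, replicate 2 in orange, and black squares with bars for the mean and SD. The upper 4 genes rise and the lower 4 fall in every pair, and ipsilateral replicate 2 is the highest library for *Ctsl* and *Cd63* and the lowest ipsilateral one for *Ctsb*, *Ctsf*, *Man2b1*, *Sgsh* and *Psap*.

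Marker RNA also differed between the hemispheres of microglia. The summed level of the 12 microglial markers was 495614 to 585131 in the contralateral and 264448 to 434792 in the ipsilateral libraries, lower in 6 of 6 pairs, and 5 of the 12 (*Tmem119*, *P2ry12*, *Csf1r*, *Siglech* and *Gpr34*) were downregulated. Of 6 neutrophil markers tested, *S100a8*, *S100a9* and *Retnlg* were upregulated and *Csf3r* downregulated, while *Ly6g* was at 0 in all contralateral microglial libraries. The 7 neutrophil markers together summed to 6423 to 8009 and 4381 to 18776, higher in 1 of 6 pairs. The median log2FC over the 6 tested was nevertheless 2.86, so the sum and this median differ in direction. Of the called neutrophil markers, only *Csf3r* went the way of the sum. The highest *S100a8*, at 9831 normalized counts, was in ipsilateral replicate 2, against 571 to 2445 in the other 5. The 7 markers of monocytes and border macrophages summed to 338 to 1770 and 1118 to 3208, higher in 5 of 6 pairs, with 0 of 7 called (limma, median log2FC 0.94). Without replicate 2, *Ctsl* had a log2FC of 1.18 and *Cd63* one of 1.26, and both were still called, whereas *Psap*, *Hexa* and *Ctns* lost the call. The part of these other cells in the changes of lysosomal genes was not tested.

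Which single libraries the microglial calls rest on varied between members. Leaving out each replicate in turn gave 6 to 14 upregulated and 5 to 12 downregulated members. The shares of all genes called in these fits are not given, so the counts show only how well calls of members held up. *Ctsl*, *Igf2r* and *Sgsh* kept the call in all 17 alternatives other than the titles, and *Cd63*, *Gla*, *Ctsf*, *Ctso* and *Ap3s1* in 16 of 17. *Ctns* kept it in 5, and *Ctsb* and *Hexa* in 8. Without replicate 3 there were 6 upregulated and 5 downregulated members, without replicate 4 there were 6 and 6, without replicate 6 there were 7 and 6, and without replicate 1 there were 7 and 8.

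In endothelial cells the member that changed was *Litaf* (ENSMUSG00000022500, chromosome 16 from 10959275 to 10993121), a small membrane protein of late endosomes and lysosomes. It was at 1586 to 4878 normalized counts (median 3628) in the contralateral and 8150 to 11277 (median 10750) in the ipsilateral libraries, with no overlap and a rise in 6 of 6 pairs. The log2FC was 1.64 (SE 0.25, limma adjusted p = 0.0100, and 0.0236 with the replicate block). Over 17 alternatives the log2FC ranged from 1.39 to 2.13, and the call was lost without replicate 3 (adjusted p = 0.0537, limma), without replicate 6 (0.124) and with only replicates 1 to 4 (0.0887). In replicates 5 and 6, where microglial marker RNA was 400 to 711 in both hemispheres, *Litaf* went from 1586 to 8150 and from 2912 to 10900. Pericytes, astrocytes and microglia had log2FC values of 0.44, 0.43 and 0.49 for this gene (limma adjusted p = 0.219, 0.801 and 0.0915). The difference between endothelial cells and microglia was -1.14 (microglia minus endothelial cells, limma adjusted p = 0.234, and 0.0443 with the replicate block).

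The other endothelial members were not called in the fit of the 12 endothelial libraries. The median log2FC was 0.23 over the 102 members tested and -0.03 over all genes. *Ctsb* was higher in the ipsilateral library of all 6 pairs (5253 to 10211 and 8740 to 49055 normalized counts, log2FC 1.29, limma adjusted p = 0.159), and so was *Gla* (49 to 154 and 182 to 499, log2FC 1.55, limma adjusted p = 0.121), whose ranges did not overlap. The median over members was 0.702 in the pair of replicate 2 and 0.330 in that of replicate 3, and lay between -0.0515 and 0.0417 in the other 4. The microglial marker sum fell from 31183 to 24468 in the pair of replicate 2 and rose from 17391 to 55338 in that of replicate 3. With only replicates 1 to 4, 0 members were called, and with only replicates 5 and 6, which were chosen with the values in view, 5 were upregulated (*Cd63*, *Ctsb*, *Lamp1*, *Lgmn* and *Litaf*), where 2.66% of all genes were, and 1 (*Ap1s2*) downregulated, where 0.941% were. Over the 31 members highest in microglia the median difference between hemispheres was 0.64 in replicates 1 to 4 and 0.07 in replicates 5 and 6, while it was 0.10 and -0.11 over the other 73. Neutrophil markers were also higher in the ipsilateral endothelial library of 6 of 6 pairs, with sums of 6 to 1726 and 94 to 10401.

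**Figure D4:**
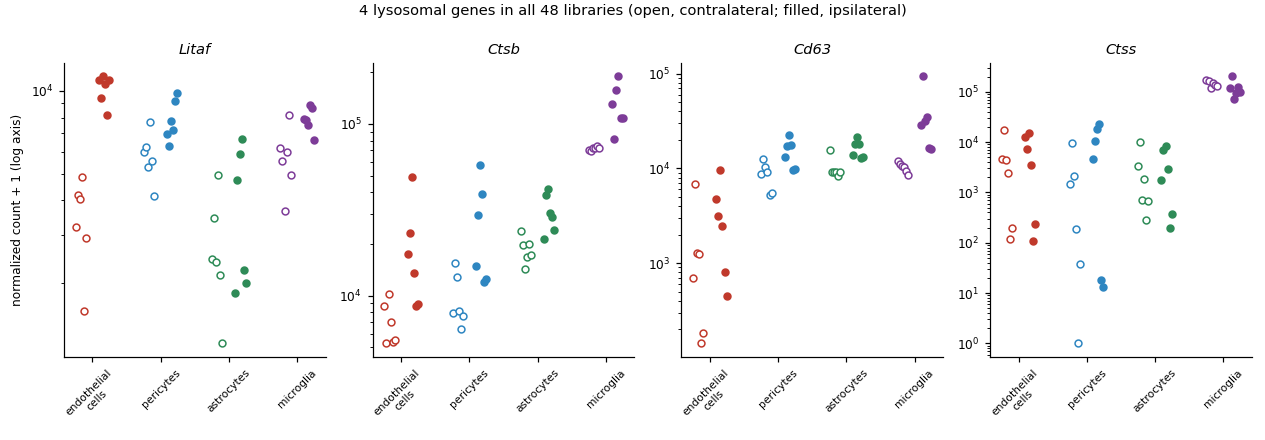
Normalized count + 1 of *Litaf*, *Ctsb*, *Cd63* and *Ctss* on a log axis in all 48 libraries, with replicates 1 to 6 from left to right in each group. The open and filled endothelial points of *Litaf* do not overlap, *Ctsb* is higher in the ipsilateral library of at least 5 of 6 pairs in each cell type, and the *Ctss* points of replicates 5 and 6 are the lowest in each hemisphere of the endothelial cells and of the pericytes.

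In pericytes no member was called in the fit of the 12 pericyte libraries without the block, and the replicate block called *Cd63* and *Ctsb*. *Cd63* held 5199 to 12627 normalized counts (median 9032) and 9674 to 22354 (median 15164), higher in 6 of 6 pairs (log2FC 0.80, limma adjusted p = 0.162, and 0.0284 with the block, from 0.0284 to 0.511 over all alternatives). *Ctsb* held 6374 to 15504 (median 8020) and 11906 to 57884 (median 22147), also higher in 6 of 6 pairs (log2FC 1.31, limma adjusted p = 0.118, and 0.0359 with the block, from 0.0166 to 0.385 over all alternatives). In both genes the ranges of the hemispheres overlapped. Microglial marker RNA was higher in the ipsilateral pericyte library of 5 of 6 pairs, most in replicate 4, from 907 to 59307, and the neutrophil markers in 6 of 6.

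Pericyte differences also divided by replicate. The median log2FC was 0.20 over the 102 members tested and -0.04 over all genes. The median over the 102 members was 0.184, 0.152, 0.508 and 0.643 in the pairs of replicates 1 to 4 and -0.0759 and -0.249 in those of replicates 5 and 6. Over the 31 members highest in microglia it was 1.35 in the first 4 and -0.07 in the last 2, and over the other 73 it was 0.16 and -0.17. *Ctsb* and *Cd63* were higher in both of the last 2 pairs, *Ctsb* by going from 6374 to 11906 and from 7616 to 12560, and *Cd63* from 5199 to 9674 and from 5495 to 9889. *Ctsl* held 2759 and 3206 contralateral and 2920 and 3184 ipsilateral normalized counts there, and 1722 and 20390 in replicate 4.

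**Figure D5:**
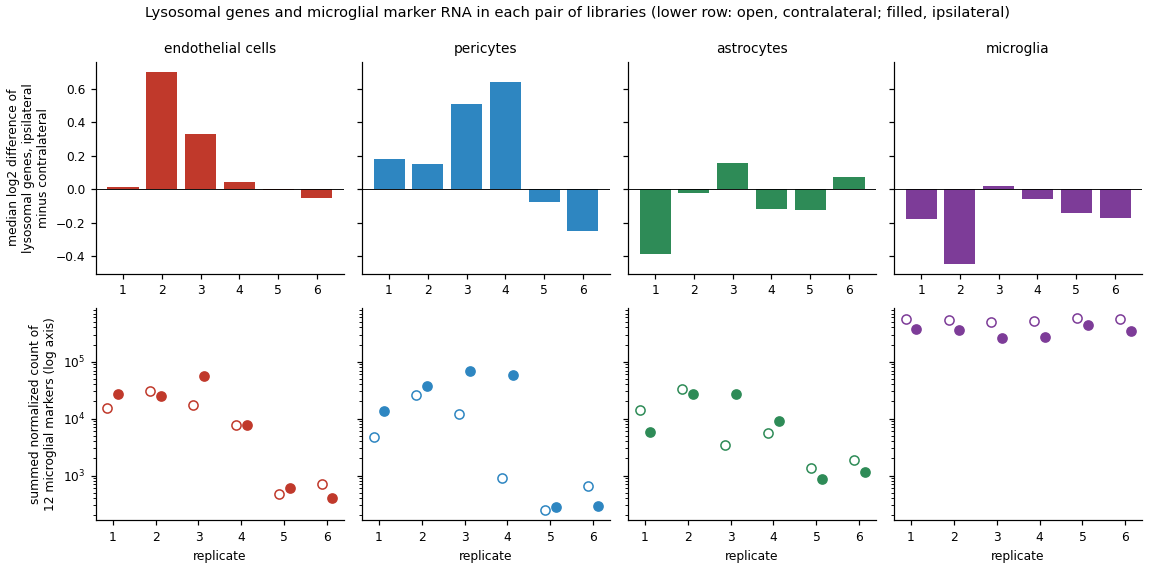
Upper row, the median over members of the log2 difference between the hemispheres in each of the 6 pairs; lower row, the summed normalized count of 12 microglial markers on a log axis, open for contralateral and filled for ipsilateral libraries. In endothelial cells and pericytes replicates 5 and 6 have the lowest marker sums (244 to 711) and medians below 0, and in microglia the median was above 0 only in replicate 3 (0.0192).

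In astrocytes no member was called in the fit of the 12 astrocyte libraries without the block, and the median of the members equalled that of all genes, at -0.06. The replicate block called *Cltb*, a clathrin light chain, as upregulated (954 to 1593 and 1701 to 3935 normalized counts, no overlap, log2FC 1.03, limma adjusted p = 0.0973, and 0.0249 with the block, from 0.000326 to 0.998 over all alternatives). *Ctsb* and *Cd63* were each higher in 5 of 6 astrocyte pairs (log2FC values 0.71 and 0.69, limma adjusted p = 0.319 and 0.270). Neutrophil markers were higher in the ipsilateral astrocyte library of 6 of 6 pairs, with sums of 36 to 1484 and 246 to 5466, and microglial markers in 2 of 6. The part of these cells in the differences of endothelial cells, pericytes and astrocytes was not tested.

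The difference between cell types in the stroke response was tested as an interaction in the fit of all 48 libraries. Of the 104 members *Igf2r* alone differed between microglia and endothelial cells, where 0.273% of all genes differed, between microglia and pericytes (0.727%) and between microglia and astrocytes (0.293%). The differences were 4.03 (limma adjusted p = 0.0239), 4.67 (adjusted p = 0.00604, limma) and 4.61 (adjusted p = 0.00495, limma) on the log2 scale. In contralateral libraries *Igf2r* held 9 to 199 normalized counts in endothelial cells, 227 to 560 in pericytes and 86 to 365 in astrocytes, so that microglia, at 0 to 35, had the lowest contralateral level, with a range that overlapped only that of endothelial cells, through 1 library at 9. In the ipsilateral hemisphere the microglial range of 145 to 618 overlapped the ranges of the other 3. With the replicate block 4 members, *Ctse* and *Litaf* among them, differed between microglia and endothelial cells (0.787% of all genes), and 2, *Igf2r* and *Lgmn*, a cysteine protease that cleaves after asparagine, between microglia and pericytes (1.69%). The *Igf2r* difference from endothelial cells was not called without replicate 2, 3 or 6 or with a pseudocount of 0.1, that from pericytes without replicate 3, and that from astrocytes without replicate 2 or 3, and in each of these cases 0 members differed. Interactions between the other pairs of cell types were not tested.

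Genes around the lysosome that are not members were read from lists. Of 8 proton pump subunits with the KEGG term, *Atp6v0c* and *Atp6v1h* were upregulated in microglia, by 0.95 and 0.74 on the log2 scale (limma adjusted p = 0.0223 and 0.0116), 0 were downregulated, and 0 were called in the other cell types. Of 17 regulators of lysosome number and nutrient sensing, 1 (*Fnip2*, a folliculin partner, 1.32, limma adjusted p = 0.0231) was upregulated and 1 (*Rptor*, the raptor subunit of mTORC1, -1.10, limma adjusted p = 0.00420) downregulated in microglia. Of 22 autophagy genes 0 were upregulated and 2, *Ulk1* and *Uvrag*, downregulated in microglia (-1.14 and -0.77, limma adjusted p = 0.0357 and 0.0181), and with the block *Ulk1* lost the call (adjusted p = 0.0536, limma). Both lists had 0 called genes in the other 3 cell types.

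Of 5 tested inhibitors of lysosomal proteases 2 were upregulated in microglia and 0 downregulated. *Cstb*, cystatin B, went from 850 to 1533 normalized counts in contralateral microglia to 1719 to 18923 in ipsilateral ones (log2FC 2.13, limma adjusted p = 0.00794), and *Cst7*, cystatin F, from 218 to 365 to 788 to 2790 (log2FC 2.03, limma adjusted p = 0.000638), each in 6 of 6 pairs and without overlap. In the other cell types 0 of the 5 or 6 inhibitors tested were called. Of 14 genes that lack the KEGG term, lysosomal ones and the lipid droplet gene *Plin2*, 11 or 12 were tested in each cell type. *Plin2*, a lipid droplet coat protein, was upregulated in endothelial cells, pericytes and microglia (1.59, 2.05 and 2.87, limma adjusted p = 0.0100, 0.0281 and 2.89e-05). No other gene of this list was upregulated in these cell types. *Gpnmb*, a glycoprotein of phagocytes, was upregulated in astrocytes (2.20, limma adjusted p = 0.0235), and *Tpcn1* and *Slc38a9*, an ion channel and an amino acid transporter of the lysosomal membrane, were downregulated in microglia (-1.29 and -0.76, limma adjusted p = 0.0137 and 0.00998).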

How the data were processed

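Per the methods and the submitters' processing notes, the authors amplified RNA of the sorted cells (SMART-Seq), trimmed the reads (Trimmomatic 0.38), aligned them to mm10 (STAR 2.6.1d), counted uniquely aligned reads within 1 gene (featureCounts 1.6.3) and normalized them with DESeq2 1.18.1. The authors deposited the normalized counts rounded to whole numbers, a score per gene and library and not a raw count, so no count model was used and the read depth per library is unknown. In 21 of 48 libraries gaps between the whole numbers put 1 read at 1.03 to 2.38 normalized counts and 3 reads at no more than 7.14. The highest worths of 1 read were both in ipsilateral microglia, at 2.38 in replicate 3 and 1.59 in replicate 2. Replicate 2 of ipsilateral microglia also had the highest normalized total, 16942165.

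The deposited values were taken as log2(normalized count + 1), which understates changes of low genes, and tested with limma 3.58.1 in R 4.3.3 (mean-variance trend, two-sided, Benjamini-Hochberg adjustment over genes with a mean of at least 10). Stroke effects were fitted on the 12 libraries of a cell type without the replicate number, levels and interactions on all 48. Replicates are pools of different mice. Both hemispheres of a replicate came from the same mice, and deviations of same-numbered libraries from their group means correlated by 0.227 (endothelial cells), 0.227 (pericytes), 0.380 (astrocytes) and 0.135 (microglia) on average, against -0.0387, -0.0449, -0.0759 and -0.0258 for different numbers. The replicate block is therefore given wherever it changed the number of called members. In the lists of genes that are not members it also changed calls, which are not all given. The fit was tested on simulated data with 200 changed genes.

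Members, roles and lists were chosen with earlier results of these data known. Named were members called outside microglia, up to 12 a direction in microglia that changed alike in all 6 pairs, up to 3 highest per cell type, and fixed well-known members. *Napsa*, *Acp2*, *Acp5*, *Lgmn*, the members named for a level alone and those called only with the block were chosen after their values were seen. Alternatives were pseudocounts of 0.1 and 10, a mean of at least 50 or no filter, the block, the joint fit, rescaling within a cell type, no fold or expression minimum, replicates 1 to 4 alone, each replicate left out, the titles' cell types and, added after the data were seen, replicates 5 and 6 alone. The counts cover all members, but the values of some members are not reported here. Promoters came from the RefSeq table of GRCm38.p6. Analyses used Python 3.11.15.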

Additional observations from a re-analysis of the deposited data

Results flagged for a closer look

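Within the groups of 6 libraries, 4 of 54 sets of values of named members had a library far from the others by Dixon's criterion at the 95% level, where chance gives about 1 in 20. Both flagged ipsilateral values came from replicate 2 of microglia, with *Ctsl* at 105123 normalized counts against 37757 to 59332 in the other 5 and *Cd63* at 93543 against 16137 to 34933. Both flagged contralateral values came from replicate 1 of microglia, with *Napsa* at 80 normalized counts against 0 to 11 and *M6pr* at 5165 against 3848 to 4282.

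The hemisphere difference of *Igf2r* was larger in microglia than in each of the other cell types, with a log2 fold change of 4.69 against 0.66, 0.02 and 0.08 and differences of 4.03 from endothelial cells, 4.67 from pericytes and 4.61 from astrocytes (interaction in the limma fit of 48 libraries, adjusted p = 0.0239, 0.00604 and 0.00495). The contralateral values of microglia, at 0 to 35 normalized counts, were low enough for the size of this change to depend on the pseudocount.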

How the results depend on the processing

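Counts of called members depended on the processing as follows, and the causes were not tested. Shares of all genes are given above for the titles' cell types and for replicates 5 and 6 of endothelial cells. For the other settings of this paragraph they are not given, so those counts cannot be set against genes in general. With the joint fit of 48 libraries there were 4 upregulated members in endothelial cells, 6 upregulated and 1 downregulated in pericytes, 1 upregulated in astrocytes and 7 downregulated in microglia. With only replicates 1 to 4 there were 0 upregulated members in endothelial cells, 6 upregulated and 4 downregulated in microglia, 0 highest in pericytes and 0 that differed between microglia and endothelial cells. With only replicates 5 and 6 there were 5 upregulated and 1 downregulated in endothelial cells, 5 upregulated and 6 downregulated in microglia, and 0 that differed between microglia and pericytes or astrocytes. A pseudocount of 0.1 gave 0 highest in pericytes and 0 that differed between microglia and endothelial cells, and a pseudocount of 10 gave 2 of the latter. With the titles' cell types there were 65 upregulated and 6 downregulated members in pericytes and 6 and 63 in microglia. By the marker sums given above, these fits of the titles set different cell types side by side. Leaving out 1 replicate gave 0 to 1 upregulated member in endothelial cells, 6 to 14 upregulated and 5 to 12 downregulated in microglia, 0 to 1 highest in pericytes, and 0 to 1, 0 to 2 and 0 to 2 that differed between microglia and endothelial cells, pericytes and astrocytes.

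With the replicate block there were 2 upregulated members in pericytes, 1 upregulated and 1 downregulated in astrocytes, 4 that differed between microglia and endothelial cells and 2 between microglia and pericytes. In microglia it gave 27 called members, of which 22 were shared with the fit without it. The block changed no other call of a member.

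Log2 fold changes in microglia changed sign with the titles' cell types for *Ctsl* (-1.49), *Gla* (-0.44), *Galns* (-0.42), *M6pr* (-0.95), *Gnptab* (-0.20), *Ctsb* (-1.65), *Cd68* (-4.85), *Lamp1* (-0.55), *Ctsz* (-3.07), *Npc2* (-2.20), *Gga2* (-0.57) and *Slc11a2* (-0.44). The libraries titled ipsilateral microglia had sums of 34058 to 90625 for pericyte markers and 278 to 67556 for microglial markers. These sign changes therefore come from setting different cell types side by side. Signs of uncalled members also changed, with only replicates 5 and 6 for *Cd68* (-0.093), *Gaa* (0.059) and *Npc2* (-0.16), with only replicates 1 to 4 for *Lamp1* (-0.37) and *Lamp2* (0.059), with rescaling for *Lamp2* (0.047), and without 1 replicate for *Lamp2* (-0.11 to 0.030) and *Gaa* (-0.25 to 0.18). The deposited values allow no count model, and the worth of 1 read is not known for all libraries.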
